A study of Mus musculus with 15 samples.

Results

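IL6Myc-2 and IL6Myc-4 are 2 of a panel of 5 mouse myeloma cell lines of the genotype IL6Myc, and their transcriptomes were compared directly with each other. The members of the comparison are the 3 libraries of IL6Myc-2 and the 3 of IL6Myc-4, 6 of the 15 libraries of the series, chosen by the line named in the labels. Each library was made from total RNA, extracted with the RNeasy mini kit, by the TruSeq Stranded Total RNA preparation, and no treatment, age or time is given for any of them. All 5 lines carry the same genotype, so no group lacks it. Each group is 1 cell line, and nothing says that its 3 replicates came from separate cultures. The p-values therefore measure only the spread between libraries of a line. That spread was estimated over all 15 libraries and may be technical. The question is which genes tell these 2 lines apart.

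Multiple myeloma is a cancer of plasma cells, the antibody-secreting end stage of the B cell lineage. Such cells depend on survival signals from their niche, among them interleukin 6, which acts through the receptor subunits Il6ra and Il6st, the JAK kinases and STAT3, and ligands of the TNF family, which act through NF-kB. In the alternative branch of NF-kB the kinase NIK, encoded by Map3k14, is held low by a complex of Traf2, Traf3, Birc2 and Birc3. When NIK builds up it activates IKK alpha, encoded by Chuk, and the Nfkb2 precursor is trimmed to the form that binds DNA together with Relb. In the Hedgehog pathway the receptor Ptch1 restrains Smo, and the Gli proteins are the transcription factors at its end. Gli1 and Ptch1 are themselves target genes and serve as readouts of the pathway.

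The 6 libraries held 19092612 to 26163997 estimated counts each. Levels are given as CPM, the usual depth-scaled counts, on library sizes scaled by TMM, a method that assumes that most genes do not differ. CPM are not corrected for gene length, so levels are compared between lines and not between genes. Immunoglobulin genes took up 11.5% ± 0.11 of the counts in IL6Myc-2 and 4.91% ± 0.27 in IL6Myc-4 (SD, n = 3 libraries; means ± SD elsewhere are over the same 3), and the TMM factors were 0.848 to 0.860 and 1.06 to 1.08. Within a line, Pearson's r across genes was 0.995 to 0.997, and between the lines it was 0.939 to 0.940. This pair was the third farthest apart of the 10 pairs of lines. The plasma cell markers Sdc1, Irf4, Xbp1, Prdm1, Jchain, Mzb1 and Tnfrsf17 were all detected in all 6 libraries, and the mature B cell gene Pax5 was under 1 CPM in both lines.

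Of 11773 genes tested, 1645 (14%) differed at least 2-fold with an adjusted p under 0.05 (edgeR quasi-likelihood test, Benjamini-Hochberg adjustment over all genes tested). These are called different in what follows. At any size 60.1% passed the same adjusted p. 980 genes (8.32%) were higher in IL6Myc-2 and 665 (5.65%) were higher in IL6Myc-4. These 2 shares are the background against which each count of called list members below is to be read. In the 3 against 3 libraries, 1619 of the 1645 did not overlap (13.8% of the genes tested), and non-overlap at any size was found for 65.3%. The differences reached far beyond 2-fold: 478 genes higher in IL6Myc-2 and 256 higher in IL6Myc-4 differed at least 4-fold, and 140 and 73 differed at least 32-fold. The split between the directions rests on the scaling. With library totals in place of TMM the median log2 difference of all genes moved from -0.02 to -0.34, and 725 genes were higher in IL6Myc-2 and 1184 in IL6Myc-4, that is 38.0% instead of 59.6% of the calls higher in IL6Myc-2. In bulk RNA from a culture, fewer cells that express a gene and less RNA per cell cannot be told apart.

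**Figure D1:**
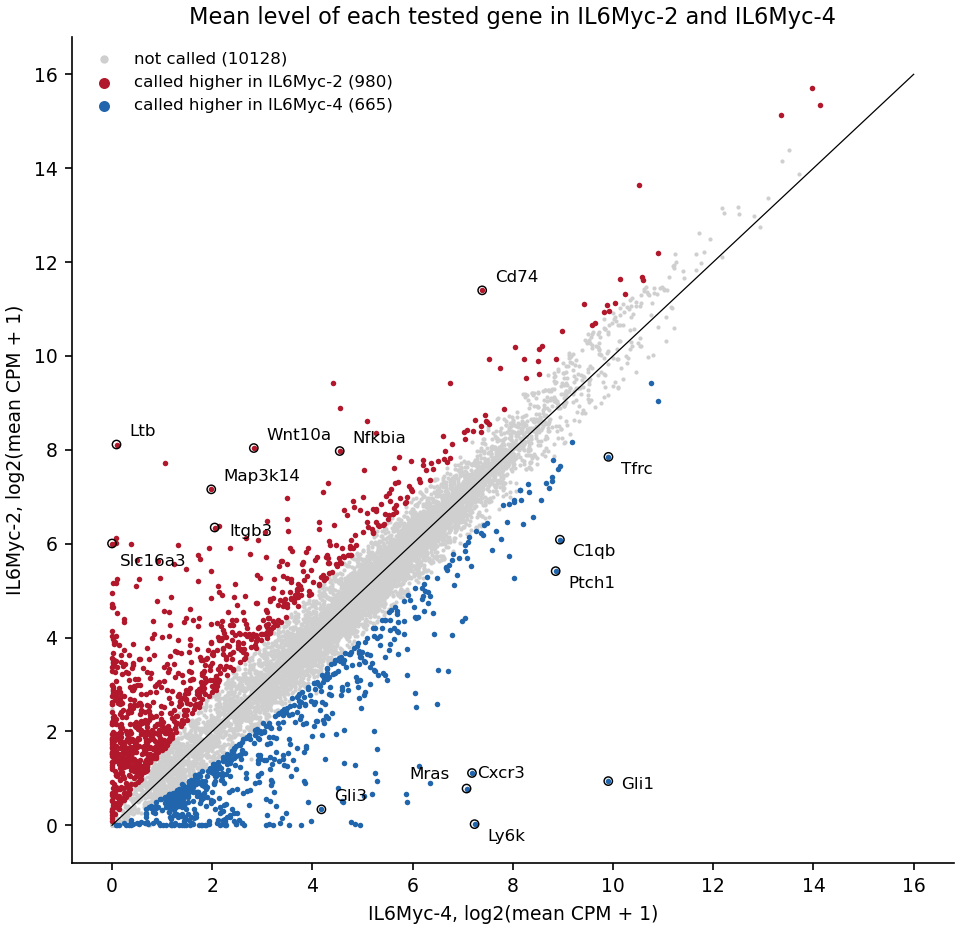
Mean level of each of the 11773 tested genes as log2(mean CPM + 1), with IL6Myc-4 on the horizontal and IL6Myc-2 on the vertical axis, coloured by whether the gene was called different, and with the line of equal levels. Gli1, Cxcr3, Mras and Ly6k lie far below the line and Ltb, Map3k14, Wnt10a and Slc16a3 far above it.

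5 genes of the alternative NF-kB branch were higher in IL6Myc-2, from its upstream kinase to its transcription factors, while its adaptor genes were not called. Of the 17 listed members 12 passed the filter on low counts, and 5 of these were higher in IL6Myc-2 (Map3k14, Ltb, Nfkb2, Relb and Birc3) and 1 was higher in IL6Myc-4 (Tnfrsf13c). The median log2 difference of the 12 was 0.75, against -0.02 over all genes tested. Map3k14, the kinase NIK, stood at 149, 132 and 144 CPM in the 3 libraries of IL6Myc-2 and at 2.68, 3.02 and 3.15 CPM in those of IL6Myc-4. The 2 sets of libraries did not overlap, with a log2 difference of 5.59 ± 0.09 (SE) and an adjusted p of 2.12e-17 (edgeR). The other 3 lines lay with IL6Myc-4, at 2.58 to 3.0 CPM. None of the 10 nearest tested protein-coding neighbours of Map3k14 along chromosome 11, 5 on each side, was called different.

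Ltb, lymphotoxin beta, is a TNF family ligand that in its complex with lymphotoxin alpha signals to NIK through the receptor Ltbr. Ltb was at 276, 280.0 and 271 CPM in IL6Myc-2 and at 0, 0.155 and 0.0384 CPM in IL6Myc-4, where 5 counts were seen over 3 libraries, and the means differed 4285-fold. The receptor gene Ltbr itself stayed under the filter, with 7 counts in IL6Myc-2 and 4 in IL6Myc-4. Nfkb2, the precursor that NIK causes to be trimmed, was at 192, 190.1 and 182 CPM against 31.7, 31.9 and 31.3 CPM (log2 difference 2.57 ± 0.05). Relb, its partner, was at 20.3, 24.8 and 22.2 CPM against 5.07, 5.41 and 4.91 CPM (log2 difference 2.13 ± 0.12). For both genes all 3 libraries of IL6Myc-2 lay above all 3 of IL6Myc-4.

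Of the genes of the complex that holds NIK low, 1 was called. Birc3, also known as a target of NF-kB, was higher in IL6Myc-2 by a log2 difference of 1.15 ± 0.06, with means of 139 ± 1.38 and 62.4 ± 3.45 CPM. With library totals alone its log2 difference was 0.83 and it was no longer called. Traf2 (18.4 against 10.4 CPM), Traf3 (36 against 28.4 CPM) and Birc2 (152 against 94.3 CPM) were not called different, and neither was the kinase gene Chuk (162 against 140.4 CPM). Tnfrsf13c, the BAFF receptor, went the other way, with 66.6, 71.8 and 77.8 CPM in IL6Myc-2 and 173, 166 and 169 CPM in IL6Myc-4 (log2 difference -1.24 ± 0.06).

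The kappaB motif, the site bound by NF-kB proteins, was found near the start of 3 of the 10 tested genes of this group that matched a RefSeq promoter. A STAT motif, searched in the same windows, was found for 3 of the 10 as well, Ltb and Nfkb2 among them, and a GLI motif for 0. Over all tested genes the STAT motif was found for 8.087%. The kappaB motif is shown here for Ltb and Nfkb2, for the feedback gene Nfkbia, and for genes of MHC class I, since these differ in level between the lines. They are reference sequences of RefSeq on GRCm38.p6, written 5′ to 3′ on the strand of the gene, with the kappaB match on either strand in capitals, and overlapping matches merged.
Ltb, chr17:35194405-35194444, plus strand: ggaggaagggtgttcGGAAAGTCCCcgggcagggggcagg
Nfkb2, chr19:46304683-46304723, plus strand: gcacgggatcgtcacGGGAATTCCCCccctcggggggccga
Nfkbia, chr12:55492652-55492691, minus strand: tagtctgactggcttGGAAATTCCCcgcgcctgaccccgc
B2m, chr2:122147546-122147585, plus strand: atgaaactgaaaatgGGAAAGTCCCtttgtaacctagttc
H2-K1, chr17:34000433-34000473, minus strand: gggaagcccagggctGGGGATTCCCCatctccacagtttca
H2-D1, chr17:35262908-35262948, plus strand: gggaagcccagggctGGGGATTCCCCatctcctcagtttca
H2-Q6, chr17:35424662-35424702, plus strand: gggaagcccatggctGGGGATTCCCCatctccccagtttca
H2-Q7, chr17:35439007-35439046, plus strand: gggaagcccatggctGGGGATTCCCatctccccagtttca

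The 4 class I heavy chain genes share the letters GGGGATTCCC in a nearly identical setting, and B2m has GGAAAGTCCC in another. The motif, searched by its name on both strands in the 250 bases before and the 50 bases after a start, was found for 11.75% of the 9311 tested genes that matched a RefSeq promoter. It was found for 15.42% of the 720 matched genes higher in IL6Myc-2, for 12.27% of the 489 higher in IL6Myc-4 and for 11.39% of those not called, and for 10 of 17 matched members of the list of the classical pathway and its feedback. No match was found in the windows of Map3k14, Tnf, Birc3 and Tapbp, which says only that these letters are not in those windows. A match is a description of the sequence and not a measured site.

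Genes of 3 inhibitors that NF-kB is known to induce against itself were higher in IL6Myc-2. In the list of the classical pathway and its feedback, 3 of 22 tested members were higher in IL6Myc-2 and 1 was higher in IL6Myc-4, with a median log2 difference of 0.22. Over all genes tested the shares were 8.32% and 5.65%, and the counts of this list are not read as a result about the list. Nfkbia, which holds NF-kB in the cytoplasm, was at 253, 254 and 244 CPM against 21.7, 24.5 and 20.8 CPM (log2 difference 3.49 ± 0.07, adjusted p 1.12e-16, edgeR). Its relative Nfkbie was at 18.4 ± 0.516 against 2.92 ± 0.603 CPM, and Tnfaip3, the ubiquitin-editing enzyme known as A20, at 19.2 ± 1.34 against 1.7 ± 0.683 CPM. The subunit genes of the classical branch were not called: Rela stood at 71 against 74.4 CPM, Nfkb1 at 44.3 against 35.4 CPM and Rel at 17.3 against 12.4 CPM. Tnip2, the gene higher in IL6Myc-4, sat at the threshold (log2 difference -1.01 ± 0.09) and was not called under DESeq2 or in 4 of the 6 fits that left out 1 library. With library totals alone the median of this list was -0.10.

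Among genes known as NF-kB targets, 6 of 15 tested were higher in IL6Myc-2 and none was higher in IL6Myc-4, and 11 of the 26 listed stayed under the filter. Tnf was at 11.1, 10.7 and 12.5 CPM against 0.0357, 0.193 and 0.192 CPM, an 81.5-fold ratio of means. Ebi3, a subunit of interleukins of the IL-12 family, was at 20.3 ± 1.4 against 2.33 ± 0.269 CPM. The stress gene Gadd45b was at 106 ± 3.54 against 37.7 ± 1.99 CPM and the sugar transporter gene Slc2a6 at 56.2 ± 0.483 against 11.1 ± 1.05 CPM. For Tnf and Ebi3 the libraries of IL6Myc-2 lay above those of IL6Myc-4 and above the means of all 3 other lines, while Slc2a6 was nearly as high in IL6Myc-3 (43.7 CPM).

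**Figure D2:**
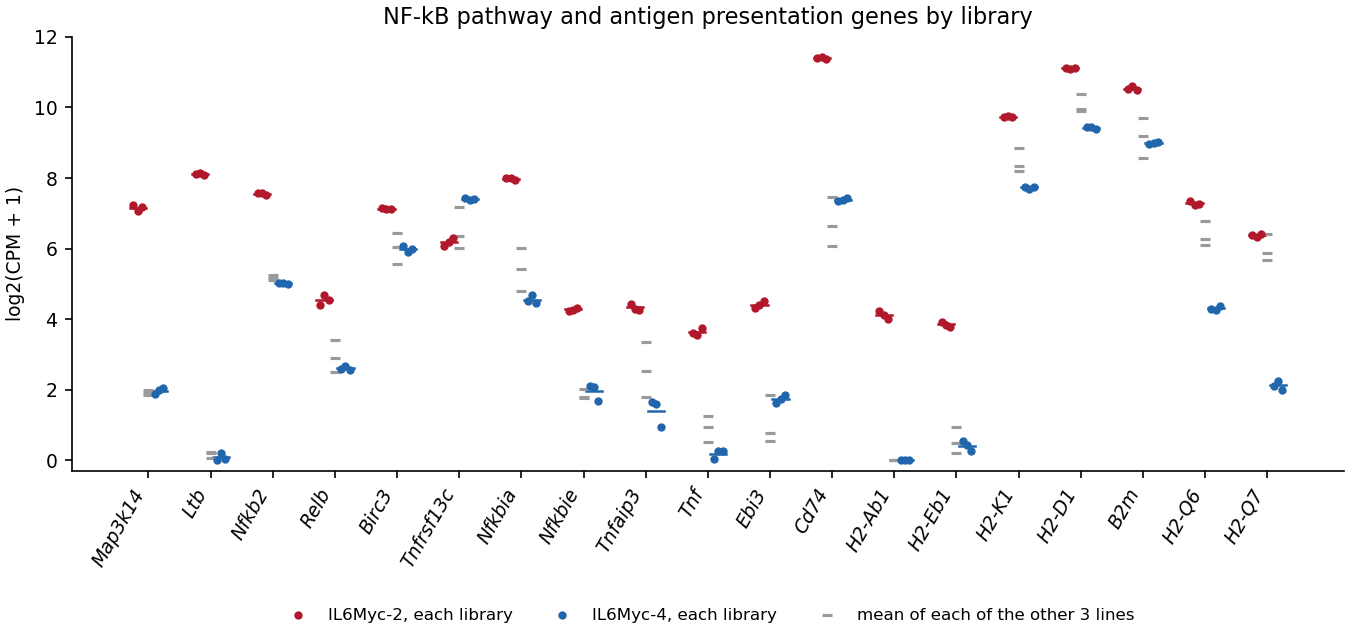
Levels as log2(CPM + 1) of genes of the NF-kB pathway and of antigen presentation in each library of IL6Myc-2 and IL6Myc-4 (points, with short bars for the mean) and the mean of each other line (grey ticks). Map3k14, Ltb and Cd74 are high in IL6Myc-2 alone, while for H2-K1, H2-D1 and H2-Q7 IL6Myc-4 is the lowest of the 5 lines and Tnfrsf13c is the one gene shown that is higher in IL6Myc-4.

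Antigen presentation genes of both classes were among those higher in IL6Myc-2. MHC class I molecules display peptides from inside the cell, and 8 of 22 tested members of that group were higher in IL6Myc-2 and none in IL6Myc-4 (median log2 difference 0.52). The heavy chain gene H2-K1 was at 851, 860.3 and 856 CPM against 216, 206 and 215 CPM (log2 difference 2.01 ± 0.04) and H2-D1 at 2209.9, 2195 and 2237 CPM against 692, 697 and 669 CPM (log2 difference 1.69 ± 0.04). B2m, the light chain common to all class I molecules, was at 1485 ± 64.4 against 508 ± 12.9 CPM. The nonclassical genes H2-Q6 (155 ± 6.73 against 18.9 ± 0.988 CPM) and H2-Q7 (82.1 ± 2.42 against 3.37 ± 0.40 CPM) differed more, but they are near-identical copies and the counting could have split reads between them. The peptide loading gene Tapbp was called (361 against 165 CPM), but with library totals alone its log2 difference was 0.80. The transporter genes Tap1 (79.1 against 56.8 CPM) and Tap2 (95.9 against 69.2 CPM) and the proteasome subunit genes Psmb8 (303 against 205 CPM) and Psmb9 (70.3 against 46 CPM) were not called. For H2-K1 and H2-Q7, IL6Myc-4 had the lowest mean of the 5 lines, with 294 to 463 CPM of H2-K1 and 50.4 to 85.1 CPM of H2-Q7 in the other lines. For B2m and Tapbp, IL6Myc-1 was lower than IL6Myc-4, at 379.8 and 60.5 CPM.

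MHC class II molecules present peptides taken up from outside, and plasma cells normally shut their genes down. Of 15 listed members 8 passed the filter, and 3 of these were higher in IL6Myc-2. Cd74, the invariant chain that guides class II molecules, was at 2681, 2762 and 2644 CPM in IL6Myc-2 and at 162, 166 and 171 CPM in IL6Myc-4 (log2 difference 4.02 ± 0.04, adjusted p 2.70e-19, edgeR), with 66 to 175 CPM in the other lines. H2-Ab1, a class II beta chain, was at 18, 16.4 and 15.1 CPM in IL6Myc-2 and had 0 counts in the 3 libraries of IL6Myc-4, which makes it at least 439-fold higher when 3 counts summed over that line are taken as the floor. The same gene had 0 counts in all 3 other lines. H2-Eb1, another beta chain, was at 13.5 ± 0.706 against 0.335 ± 0.137 CPM. The alpha chain gene H2-Aa, the partner of H2-Ab1, had 54 counts against 8, and Ciita, the master regulator of class II, had 2 against 1, both under the filter. The accessory genes H2-DMa (11.4 against 8.84 CPM) and Rfx5 (27.7 against 20.5 CPM) were not called.

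IL6Myc-4 was marked by Hedgehog genes. Gli1 was at 986, 894 and 993 CPM in the libraries of IL6Myc-4 and at 1.38, 0.457 and 0.919 CPM in those of IL6Myc-2. The log2 difference was -10.00 ± 0.12 (adjusted p 7.23e-19, edgeR), and the other lines held 0.0805 to 1.21 CPM. Gli3, a Gli protein that acts mostly as a repressor when the pathway is off, was at 17.7, 16.9 and 16.8 CPM in IL6Myc-4 and 0.286, 0.203 and 0.306 CPM in IL6Myc-2, and had 0 counts in the other 3 lines. Ptch1, the receptor and a readout of the pathway, was at 468, 470.0 and 448 CPM in IL6Myc-4 and 44.4, 40.7 and 39.8 CPM in IL6Myc-2 (log2 difference -3.47 ± 0.05), against 46.8 to 53.2 CPM elsewhere. For these 3 genes the libraries of IL6Myc-4 were above those of IL6Myc-2 and above the means of the other lines.

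The rest of the pathway did not follow. Of the 25 listed genes 16 passed the filter, with 3 higher in IL6Myc-4 and 2 higher in IL6Myc-2 and a median log2 difference of -0.16. The ligand genes Shh, Ihh and Dhh had 0, 11 and 0 counts over the 3 libraries of IL6Myc-4 and 0, 1 and 1 over those of IL6Myc-2. Smo, the signal transducer under Ptch1, had 4 counts in IL6Myc-4 and 1 in IL6Myc-2, and Gli2 had 2 and 0. Sufu (22 against 27.6 CPM in IL6Myc-2 and IL6Myc-4) and Spop (156 against 154 CPM), which restrain Gli proteins, were not called different. Disp1, which releases Hedgehog ligands, was higher in IL6Myc-2 (16.1 ± 2.08 against 4.76 ± 0.0416 CPM), as was Hhat at low levels (1.55 against 0.703 CPM), whose call was lost without replicate 2 of IL6Myc-2 (log2 difference 0.90) and without replicate 3 of IL6Myc-4 (0.92). Without TMM the count was 6 higher in IL6Myc-4 and 1 higher in IL6Myc-2. In the list of the primary cilium, the organelle in which the pathway runs, 2 of 29 tested members were higher in IL6Myc-2 and 1, Bbs2, was higher in IL6Myc-4 (38.9 ± 2.03 against 8.16 ± 1.0 CPM). Of the 10 tested neighbours of Gli1 on chromosome 10, 1 was higher in IL6Myc-4 (Lrp1, 2.15 against 4.4 CPM) and 3 were higher in IL6Myc-2 (Ddit3, Inhbe and Nxph4).

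Genes of the IL-6 pathway were called in both directions. 5 of 21 tested members were higher in IL6Myc-2 and 4 were higher in IL6Myc-4, with a median log2 difference of 0.15, which was -0.18 with library totals alone. The genes higher in IL6Myc-4 were Il6ra, Il6st, Tyk2 and Socs2. Il6ra was at 47.2, 52.8 and 44.6 CPM there and 13.6, 13.6 and 16.9 CPM in IL6Myc-2 (log2 difference -1.72 ± 0.09), and the kinase gene Tyk2 was at 302, 289 and 293 CPM and 85.3, 82.9 and 85.4 CPM (log2 difference -1.80 ± 0.04). The libraries did not overlap for either gene, and Tyk2 in IL6Myc-4 lay above the 43.6 to 57.6 CPM of the other lines. Il6st, the signalling subunit, was at 282 ± 7.19 against 141 ± 5.62 CPM and sat on the 2-fold threshold, with a log2 difference of -0.99 under DESeq2, -0.97 without replicate 2 of IL6Myc-2 and -0.98 without replicate 1 of IL6Myc-4. Socs2, a suppressor of cytokine signalling, was higher in IL6Myc-4 too (19.3 ± 1.15 against 5.99 ± 1.46 CPM).

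Genes known as targets of the pathway were among those higher in IL6Myc-2. Pim1, a serine kinase that promotes survival, was at 1104, 1121 and 1176 CPM in IL6Myc-2 and 375, 358 and 364 CPM in IL6Myc-4 (log2 difference 1.63 ± 0.04). Its relative Pim2, on which myeloma cells are known to depend, was at 136, 137 and 138 CPM and 16.6, 16.6 and 19.3 CPM (log2 difference 2.97 ± 0.08), and the other lines held 12.9 to 18.3 CPM. Socs3, a feedback inhibitor of the pathway, was at 17.7 ± 1.59 against 8.33 ± 0.0586 CPM. With library totals alone Socs3 (log2 difference 0.76) and Pim3 (0.75) lost their calls, and Pim3 lost it without replicate 2 of IL6Myc-2 (0.98) and without replicate 1 of IL6Myc-4 (0.97) as well. Stat3 (169 against 116 CPM) and Jak2 (114 against 76.2 CPM) were not called. Mouse Il6 had 0 counts in both lines.

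**Figure D3:**
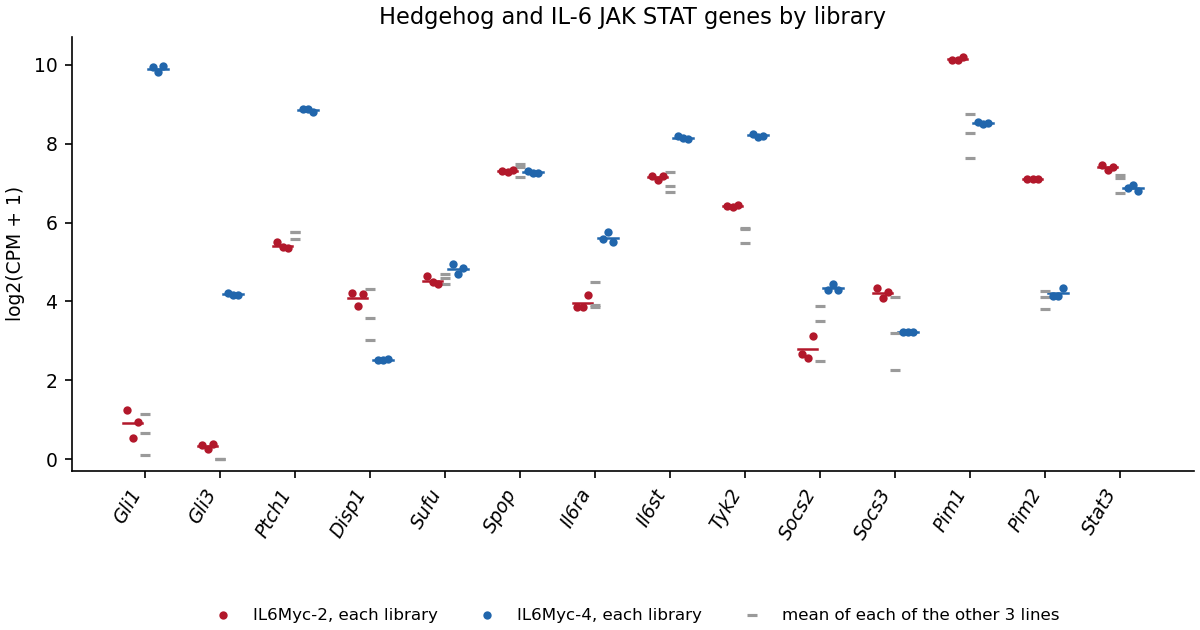
Levels as log2(CPM + 1) of Hedgehog genes (left) and genes of the IL-6 pathway (right) in each library of IL6Myc-2 and IL6Myc-4, with the mean of each other line as grey ticks. Gli1, Gli3, Ptch1, Il6ra and Tyk2 are highest in IL6Myc-4, and Pim1 and Pim2 are highest in IL6Myc-2.

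Of 18 tested genes of plasma cell identity, 2 were higher in IL6Myc-2 and 2 in IL6Myc-4 (median log2 difference -0.12). At any size 8 were significantly higher in IL6Myc-2 and 9 in IL6Myc-4. The transcription factor genes Irf4 (976 against 1093 CPM), Xbp1 (1571 against 1902 CPM) and Prdm1 (167 against 196 CPM) were not called, nor were Jchain (10591 against 8720.4 CPM) and Mzb1 (2719 against 2145 CPM). Myc, the oncogene in the name of the model, stood at 1596, 1494 and 1489.6 CPM in IL6Myc-2 and 1369, 1355 and 1385 CPM in IL6Myc-4, 1.11-fold apart by their means and not called. Surface markers differed. Sdc1, the syndecan by which plasma cells are recognised, was at 582 ± 15.1 CPM in IL6Myc-4 and 284 ± 9.07 CPM in IL6Myc-2, and Tnfrsf17, the receptor BCMA, at 37 ± 1.39 and 8.8 ± 0.289 CPM. Cd28, a costimulatory receptor also found on plasma cells, was higher in IL6Myc-2 (217 ± 5.74 against 61.8 ± 2.01 CPM), as was Derl3, which takes part in the removal of misfolded proteins (344 ± 6.85 against 135 ± 3.71 CPM).

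Most constant genes of antibodies were higher in IL6Myc-2. Among the constant and joining genes 7 of 9 tested were higher in IL6Myc-2, none was higher in IL6Myc-4, and the median log2 difference was 1.64. Igkc, the kappa constant gene, was at 53007, 53955 and 53855 CPM against 16512, 14812 and 17169.5 CPM (log2 difference 1.73 ± 0.05), and Igha, the constant gene of IgA, at 41511, 42358 and 40724 CPM against 18078, 16956 and 18807 CPM (log2 difference 1.21 ± 0.04). For Igha the log2 difference was 0.89 with library totals alone. Ighg3, of another isotype, was at 48.4 ± 2.14 against 0.884 ± 0.20 CPM. The same variable segments led in both lines, but the counts of heavy chain V segments were few. Igkv4-68 made up 99.9% of the counts of kappa V segments in IL6Myc-2 and 99.8% in IL6Myc-4, and 99.8% to 99.9% in the other lines. Ighv11-2 made up 92.5% ± 2.72 of the counts of heavy chain V segments in IL6Myc-2 and 95.6% ± 0.66 in IL6Myc-4 (SD, n = 3), on 553 and 1562 counts, and 91.5% to 96.1% in the other lines. The level of Ighv11-2 was 18.7 ± 0.769 CPM in IL6Myc-4 and 9.06 ± 1.07 CPM in IL6Myc-2 (log2 difference -1.05 ± 0.09). The heavy chain constant genes held 2438676 counts in IL6Myc-2 and 1465235 in IL6Myc-4. Ighv11-2 may therefore not be the segment of the expressed heavy chain, and its level is not set against that of the constant genes. V segments resemble each other, and the counting could have split reads between them.

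Of the list of mature B cell genes, 13 of 24 passed the filter, with 3 higher in IL6Myc-2 and 1 in IL6Myc-4. Cd24a (134 ± 2.15 against 45.1 ± 1.64 CPM) and Swap70 (61.5 ± 0.561 against 21.1 ± 0.296 CPM) were higher in IL6Myc-2, and the early B cell factor gene Ebf1 was higher in IL6Myc-4 (30.7 ± 1.6 against 11.9 ± 0.756 CPM). Ms4a1, which encodes CD20, was at 92.7 against 173 CPM and Cd79b, of the B cell receptor, at 325 against 564 CPM, lower in IL6Myc-2 but less than 2-fold. Among drug targets of myeloma, Ikzf3, whose human protein is degraded under lenalidomide, was higher in IL6Myc-2 (48.1 ± 5.74 against 13 ± 0.959 CPM), as was the antibody target Cd52 (399 ± 11 against 152 ± 0.544 CPM). Cd48, an adhesion molecule of the SLAM family, was higher in IL6Myc-4 (74.5 ± 0.666 against 30.8 ± 1.95 CPM). In all, 4 of 21 tested drug targets and checkpoint genes were higher in each line. Bcl2, the survival gene targeted by venetoclax, was higher in IL6Myc-2 (30.6 ± 1.94 against 14.4 ± 0.931 CPM), called with TMM and not with library totals (log2 difference 0.77).

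Genes of protein synthesis and of proliferation differed by small amounts. Cytosolic ribosomal protein genes, a list added after values were seen, were higher in IL6Myc-2 in 77 of 77 tested members, with a median log2 difference of 0.73, of which 4 were called. With library totals alone the median was 0.40 and 74 of 77 were above 0. The elongation factor genes Eef1a1 (18250.1 against 10540.0 CPM) and Eef2 (8500.2 against 4729.9 CPM) were among the uncalled genes of this kind. The proliferation list went the other way at small size: none of 30 tested members was called, 26 of 30 were below 0, and the median was -0.35. Mki67 stood at 605 against 530.5 CPM, Top2a at 376 against 413 CPM and Cdk1 at 78.7 against 107 CPM, in IL6Myc-2 and IL6Myc-4. Trp53 was at 148 against 80.7 CPM, and 1 of 22 tested genes of p53 and its targets was called, Plk2 (13.4 against 6.27 CPM), whose log2 difference was 0.77 with library totals alone.

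Some stress genes of the ATF4 branch were higher in IL6Myc-2. In the integrated stress response 4 of 20 tested members were higher in IL6Myc-2 and none in IL6Myc-4 (median log2 difference 0.52). At any size 18 of the 20 were significantly higher in IL6Myc-2 and 2 in IL6Myc-4. Over the 11773 genes tested these counts were 3533 and 3538. With library totals alone the median of the list was 0.19. Trib3, a pseudokinase induced by stress, was at 40.3, 38.1 and 37.6 CPM against 9.54, 9.28 and 9.94 CPM (log2 difference 2.01 ± 0.07). Ddit3, the factor CHOP, was at 17.3 ± 0.763 against 5.46 ± 0.279 CPM and Mthfd2, of the mitochondrial folate cycle, at 119 ± 3.17 against 46.1 ± 0.347 CPM. Atf4 itself (428 against 308 CPM) was not called. Its target Asns (286 against 145 CPM) lay just under 2-fold and was not called either. Of 30 tested genes of folding and degradation in the endoplasmic reticulum, 2 were higher in IL6Myc-2, Derl3 and Sel1l (935 ± 33 CPM in IL6Myc-4, and a log2 difference of 1.21 ± 0.04, or 0.89 with library totals alone), and the chaperone gene Hspa5 was not called (4725 against 3604 CPM).

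Single steps of sugar and oxygen metabolism differed by large factors. Slc16a3, the lactate exporter, was at 61.9, 64.5 and 63 CPM in IL6Myc-2 and had 0 counts in IL6Myc-4, at least 1682-fold higher against the same floor. It varied over the panel, with 0.0255 CPM in IL6Myc-1, 6.73 in IL6Myc-3 and 55.3 in IL6Myc-5. Hk2, the hexokinase that starts glycolysis, was higher in IL6Myc-4, with 251, 219.8 and 259 CPM against 51.8, 49.9 and 56.3 CPM (log2 difference -2.21 ± 0.08) and 31.4 to 56.1 CPM in the other lines. Pfkm, a phosphofructokinase, was higher in IL6Myc-2 (18 ± 0.739 against 3.49 ± 0.369 CPM), as was Ldhb, a lactate dehydrogenase (4.23 ± 0.43 against 0.247 ± 0.095 CPM). In all, 5 of 23 tested glycolysis genes were higher in IL6Myc-2 and 1 in IL6Myc-4.

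Egln1 and Egln3 encode prolyl hydroxylases that mark HIF for destruction when oxygen is present. Egln1 was at 24.8, 26.2 and 25.2 CPM in IL6Myc-2 and had 0 counts in IL6Myc-4 and in each of the other 3 lines, so it was at least 677-fold higher than in IL6Myc-4. Egln3 was at 5.52 ± 0.516 against 0.113 ± 0.00489 CPM, and Vegfa, a target of HIF, at 223 ± 3.14 against 98.4 ± 3.43 CPM. With library totals the log2 difference of Vegfa was 0.86 and it was not called. 4 of 17 tested genes of oxygen sensing were higher in IL6Myc-2 and none in IL6Myc-4. In iron handling, where 1 of 17 tested was higher in IL6Myc-2 and 3 in IL6Myc-4, Tfrc, the transferrin receptor, was at 979.6, 985 and 915 CPM in IL6Myc-4 and 227, 227 and 235 CPM in IL6Myc-2 (log2 difference -2.06 ± 0.04). IL6Myc-2 was the low line here, with 634 to 703 CPM in the other 3. Lysosomal genes, another list added after values were seen, had a median log2 difference of -0.49, with 7 of 51 tested higher in IL6Myc-4 and 5 in IL6Myc-2. The cathepsin genes Ctsb (1899.6 ± 46.6 against 523 ± 4.14 CPM) and Ctse (1729 ± 16 against 683 ± 12.6 CPM) were among those higher in IL6Myc-4.

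Receptors and adhesion molecules went both ways. Cxcr3, a chemokine receptor, was at 133, 134 and 135 CPM in IL6Myc-4 and 1.05, 0.559 and 0.552 CPM in IL6Myc-2 (log2 difference -7.50 ± 0.14), with 0.0127 to 0.333 CPM elsewhere, so it was high in IL6Myc-4 alone. Ccr10, a receptor found on plasma cells of mucosal sites, was higher in IL6Myc-2 (25.6 ± 0.875 against 6.34 ± 0.494 CPM). The general homing receptor Cxcr4 was not called (87.8 against 97.5 CPM). Of 23 listed chemokine and sphingosine receptors 7 passed the filter, with 2 higher in IL6Myc-2 and 1 in IL6Myc-4.

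Among integrins, 4 of 18 tested were higher in IL6Myc-2 and 3 in IL6Myc-4. Itgb3, the beta chain of the vitronectin receptor, was at 79.3, 77.2 and 84.2 CPM in IL6Myc-2 and 3.71, 2.94 and 2.76 CPM in IL6Myc-4 (log2 difference 4.67 ± 0.13), while Itgb5, which pairs with the same alpha chain, was at 77.1, 74.4 and 77.6 CPM and 207, 200.2 and 201 CPM (log2 difference -1.41 ± 0.05). The 2 beta chains differed in opposite directions. Of 13 other adhesion genes tested, Cd82, a tetraspanin, was higher in IL6Myc-2 (11.8 CPM, against a single count over the 3 libraries of IL6Myc-4, 990.0-fold (95% counting interval 178 to 39102)), and Alcam was higher in IL6Myc-4 (42.9 ± 1.94 against 8.16 ± 0.626 CPM). Cd44, the hyaluronan receptor, was not called (553 against 519 CPM).

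Developmental pathways contributed single genes. Wnt10a, a secreted Wnt ligand, was at 260.2, 262 and 263 CPM in IL6Myc-2 and 5.89, 6.3 and 6.14 CPM in IL6Myc-4 (log2 difference 5.42 ± 0.07, adjusted p 1.24e-18, edgeR), and the other lines held 4.04 to 19.5 CPM. Fzd6, a Wnt receptor, was higher in IL6Myc-4 (9.57 ± 0.123 against 0.12 ± 0.0741 CPM). In all, 2 of 15 tested Wnt genes were higher in each line. In the Notch list 2 of 14 were higher in IL6Myc-2 and 3 in IL6Myc-4, among them the receptor gene Notch1 (78.5 ± 13.9 against 25.5 ± 1.65 CPM). Among cytokines, Tgfb2 was higher in IL6Myc-4 (34.4 ± 2.73 against 7.0 ± 0.237 CPM). Igfbp3, which binds insulin-like growth factors, was at 9.98 CPM in IL6Myc-2 against a single count in IL6Myc-4, 779.9-fold (95% counting interval 140.0 to 30806), and it was present in all 3 other lines (15.2 to 33.2 CPM).

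Interferon response genes were called in both directions. Of 18 tested, 5 were higher in IL6Myc-4 and 2 in IL6Myc-2 (median log2 difference -0.29). Ifi204, a DNA sensor of the Ifi200 family, was at 26.3, 27.7 and 24.4 CPM in IL6Myc-4 against 3 counts in all in IL6Myc-2, 499.9-fold (95% counting interval 171 to 2424). Irgm1, a GTPase of cell defence, was at 73.9 ± 1.42 against 22.8 ± 1.02 CPM. Ifi204 and Ifi207 belong to a run of 6 neighbouring genes of the same family on chromosome 1, all higher in IL6Myc-4, whose sequences are alike enough that the counting could have split reads between them. IL6Myc-2 was the low line, since the others held 7.34 to 49.9 CPM of Ifi204.

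Markers of other kinds of cell were checked beside these results. Of 17 myeloid markers 6 passed the filter, their summed level was 322 to 339 CPM in IL6Myc-2 and 726 to 786 CPM in IL6Myc-4, and 3 were higher in IL6Myc-4 and 2 in IL6Myc-2. C1qb, a complement subunit, was at 495, 462 and 513 CPM in IL6Myc-4 and 67.5, 68.6 and 64.6 CPM in IL6Myc-2 (log2 difference -2.87 ± 0.05), and C1qc was at 65.8 ± 1.38 against 20.4 ± 1.26 CPM, while C1qa had 0 counts in IL6Myc-4 and 1 in IL6Myc-2. The defining genes Lyz2, S100a8 and S100a9 had 0 counts in both lines, and Cd14, Csf1r and Adgre1 had at most 3 counts in a line. Of 15 T and NK cell markers 6 passed the filter, with a summed level of 66.1 to 73.8 CPM in IL6Myc-2 and 124 to 127 CPM in IL6Myc-4. Of these 6, 3 were higher in IL6Myc-4 and 1 was higher in IL6Myc-2. Prf1, the pore-forming perforin, was at 15.3, 15.9 and 13.2 CPM in IL6Myc-4 and 0.0955, 0.0508 and 0.0613 CPM in IL6Myc-2, while Cd3e and Cd8a had at most 3 counts in a line and Ncr1, Nkg7 and Gzmb had 0. Of 11 erythroid and megakaryocyte markers 2 passed the filter, and 1 of these was higher in IL6Myc-4 (log2 difference -2.91). The sums were 4.17 to 5.84 CPM in IL6Myc-2 and 7.66 to 7.91 CPM in IL6Myc-4. Hba-a1, Gata1 and Alas2 were at 0 in both lines. Of 16 stromal and endothelial markers 2 passed, neither was called, the sums were 23.1 to 25.7 and 27.4 to 29.4 CPM, and Cxcl12, Cdh5, Kdr and Emcn were at 0 in both. The part of such cells in the differences above was not tested.

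Some large differences were between many counts and none. 14 genes at 5 CPM or more in IL6Myc-2 had 0 counts in IL6Myc-4, and 6 at 5 CPM or more in IL6Myc-4 had 0 counts in IL6Myc-2. Beside Slc16a3, Egln1 and H2-Ab1, those high in IL6Myc-2 included Parm1 (29.7 CPM, at least 792-fold higher), Rassf3 (24.2 CPM, at least 644-fold), the scaffold gene Gphn (15.3 CPM, at least 409-fold) and the homeobox gene Six2 (10.9 CPM, at least 291-fold). A single count was left in IL6Myc-4 for Serpina3g, of a family of near-identical serpins (34.7 CPM in IL6Myc-2, 2688-fold (95% counting interval 483 to 106190.0)), and for Scamp1, a membrane trafficking gene (24.1 CPM, 1888-fold (95% counting interval 339 to 74561)). Folds against 0 counts are lower bounds, so these genes are not ranked. Igfbp2, which binds insulin-like growth factors, was at 68.7 ± 0.957 against 0.0505 ± 0.0233 CPM.

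On the side of IL6Myc-4, Ly6k, a small surface protein gene known as a cancer-testis antigen, was at 146, 151 and 152 CPM, against a single count in IL6Myc-2, 8846-fold (95% counting interval 1588 to 349381). The other lines held 162 to 217 CPM, so it was IL6Myc-2 that lacked the counts. Slc25a4, the ADP/ATP carrier of mitochondria, had the same shape, with 27.8 CPM in IL6Myc-4, a single count in IL6Myc-2 and 37.9 to 48.7 CPM in the others. Cyyr1 (29.9 CPM in IL6Myc-4, at least 568-fold higher) and the chromatin organiser gene Satb1 (10.6 CPM in IL6Myc-4, at least 201-fold) had 0 counts in IL6Myc-2. Pcsk5, a proprotein convertase gene, was at 7.77 CPM in IL6Myc-4 against a single count. A count of 0 limits a level and does not show absence: 3 counts over a line correspond to 0.0527 CPM in IL6Myc-2 and 0.0375 CPM in IL6Myc-4.

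Some differences came in runs of neighbouring genes. In the order of the tested genes along chromosome 17, Lst1, Ltb, Tnf and Nfkbil1 stood side by side and were all higher in IL6Myc-2, as were H2-D1, H2-Q1, H2-Q2, H2-Q4, H2-Q6, H2-Q7 and H2-Q10, a run of 7. The gene between them, Ddx39b, was not called (200.5 against 168 CPM). A second run of 7, of Rhox homeobox genes on chromosome X, was higher in IL6Myc-2. This run holds several copies each of Rhox2 and Rhox4, between which the counting could have split reads. On chromosome 9, Cep70 (13.7 ± 0.297 against 2.15 ± 0.743 CPM), Esyt3 (10.1 ± 2.97 against 0.197 ± 0.259 CPM) and Mras (141, 141 and 151 against 0.43, 2.39 and 0.674 CPM) were adjacent and higher in IL6Myc-4. Mras encodes a small GTPase of the RAS family. The next genes on either side were not called. Pik3cb was at 10.5 CPM in IL6Myc-2 and 6.69 CPM in IL6Myc-4, and Armc8 at 26 CPM in IL6Myc-2 and 36.7 CPM in IL6Myc-4.

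Whole chromosomes were shifted slightly. The median log2 difference of the 631 tested genes of chromosome 17 was 0.32, 77.2% of them were above 0, and 90 were called higher in IL6Myc-2 against 16 in IL6Myc-4. Chromosome 6 had a median of 0.21 over 535 genes and chromosome 14 a median of -0.24 over 375. Relative to the median of all genes these shifts were 0.34, 0.23 and -0.22. They were the same to 2 decimals under library totals alone. That is no check of the shifts, since a change of scaling moves all genes by nearly the same amount. With library totals chromosome 17 itself had a median near 0 (-0.0040). These medians are descriptions, since neighbouring genes are not independent. Pim1, the MHC genes, Ltb and Tnf all lie on chromosome 17.

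**Figure D4:**
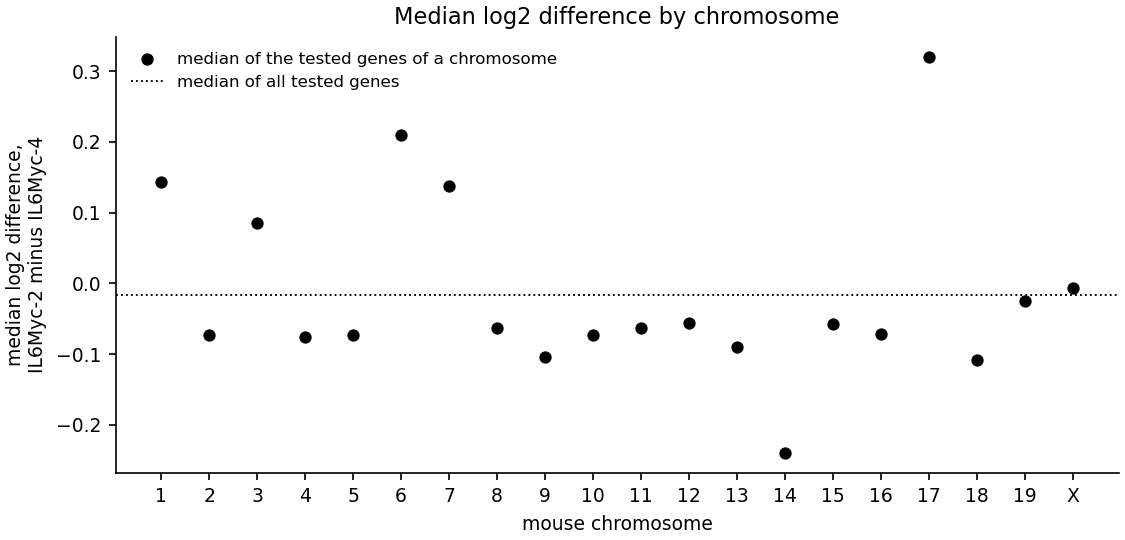
Median log2 difference, IL6Myc-2 minus IL6Myc-4, of the tested genes of each chromosome with at least 100 of them (points) and of all genes tested (dotted line). Chromosome 17 lies highest at 0.32 and chromosome 14 lowest at -0.24.

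The other 3 lines show which side of a difference is the unusual one. Of the 980 genes higher in IL6Myc-2, all 3 other lines lay nearer to IL6Myc-4 for 391 and nearer to IL6Myc-2 for 127, on the log2(CPM + 1) scale. IL6Myc-2 was the highest of the 5 lines for 699 of them and IL6Myc-4 the lowest for 423, and both held for 235. Of the 665 genes higher in IL6Myc-4, all 3 other lines lay nearer to IL6Myc-2 for 194 and nearer to IL6Myc-4 for 148. IL6Myc-4 was the highest of the 5 lines for 391 of them and IL6Myc-2 the lowest for 399, and both held for 175. A gene called higher in 1 of the 2 lines is by that choice more likely to rank highest there. No share over all genes tested is given for these ranks. Over all genes tested, 29.4% had all 3 other lines nearer to IL6Myc-4 and 18.6% had all 3 nearer to IL6Myc-2, against 32.8% and 19.5% of the called genes. Map3k14, Ltb, Wnt10a and Pim2 are examples in which IL6Myc-2 stood alone, and Gli1, Gli3, Ptch1, Tyk2 and Cxcr3 are examples in which IL6Myc-4 did. Tfrc and Ly6k were low in IL6Myc-2 alone.

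Set side by side, the lists differed in how many members were called and in how far single genes reached. The highest shares called higher in IL6Myc-2 among lists with at least 5 tested members were those of immunoglobulin constant genes (7 of 9), alternative NF-kB (5 of 12), NF-kB targets (6 of 15), MHC class II (3 of 8) and MHC class I (8 of 22), each above the 8.32% of all genes. Proliferation, p53 (1 of 22) and the myeloma oncogenes and suppressors (1 of 20, Mycl) were at or under it. The lists were chosen with results of these data known, and the counts describe these genes only.

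**Figure D5:**
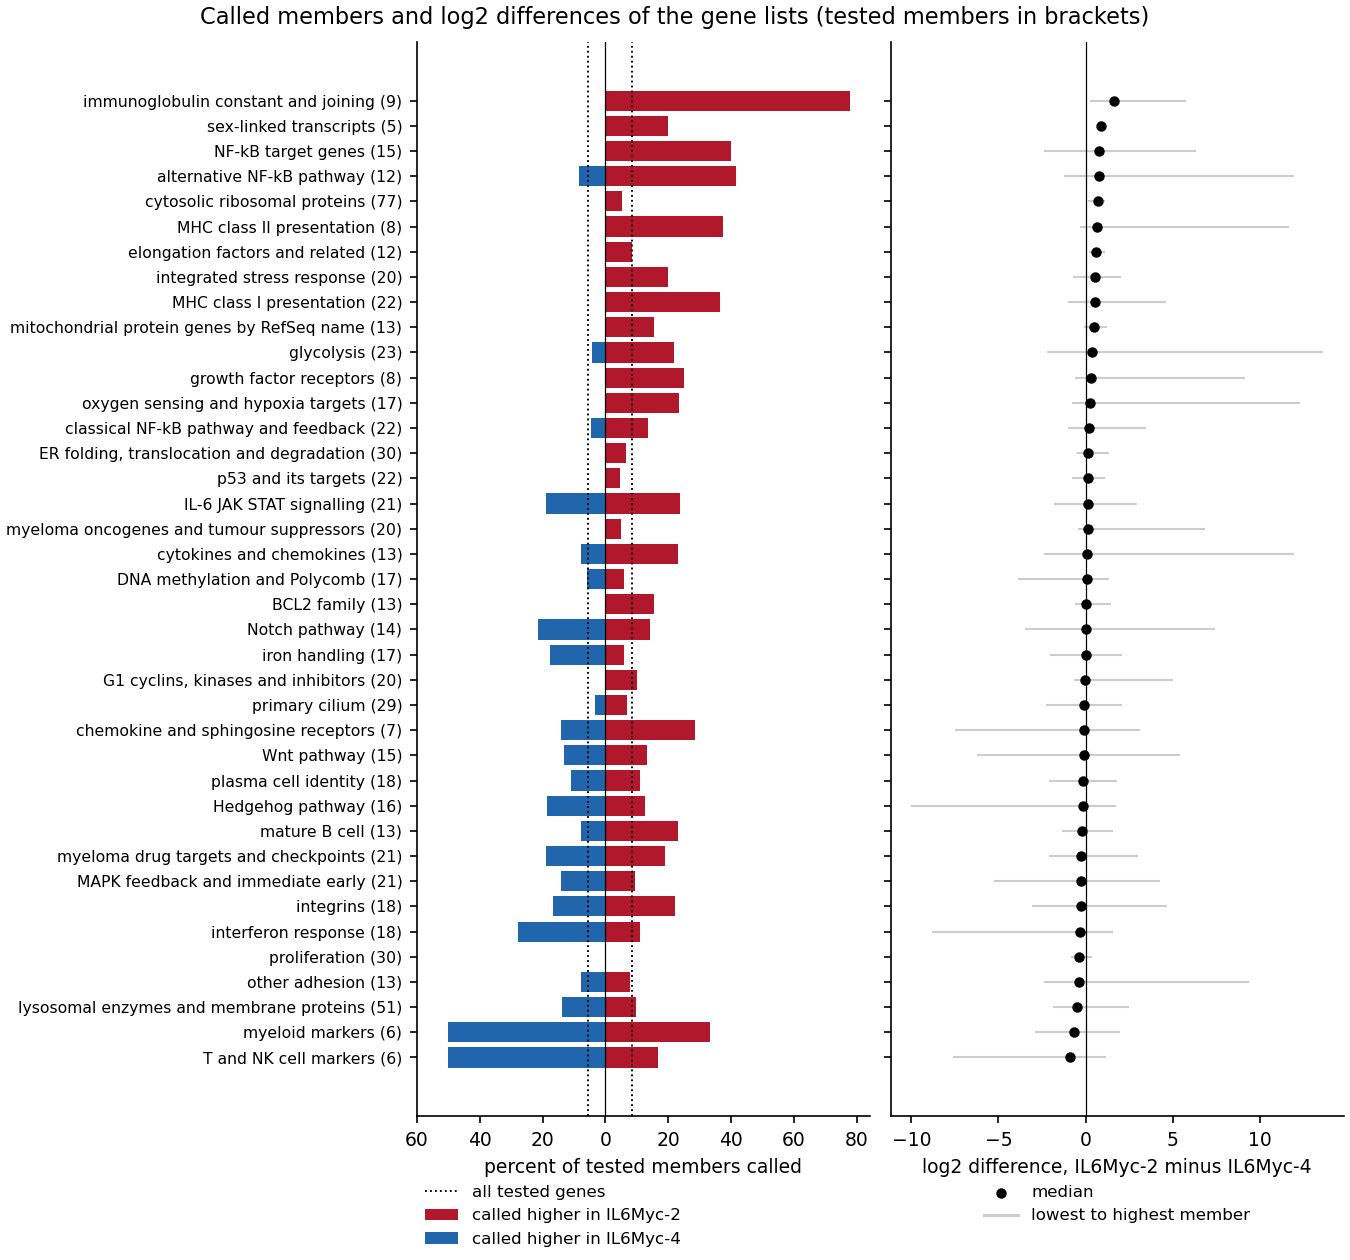
For each gene list with at least 5 tested members, the percentage of members called higher in IL6Myc-2 (right of 0) and in IL6Myc-4 (left of 0), with the percentages over all tested genes as dotted lines, and beside it the median and the range of the log2 difference. Lists are ordered by their median, and immunoglobulin constant genes have the longest bar at 7 of 9 members, with medians close to 0 for most lists. The far ends of some ranges are fitted values of genes with 0 counts in one line, which depend on the prior count.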

How the data were processed

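RNA of 5 lines, 3 libraries each, had been sequenced. The table the authors deposited holds estimated counts per gene, judged from its values: it is named for TPM, but its columns sum to different totals, from 19068543 to 41165599. Trim Galore 0.4.0, DESeq2 and the build GRCm39 are named per the submitters' processing notes, and for the aligner and counter the entry is: not given in the sources used here. Counts were rounded, and a gene entered the test when 3 or more libraries reached 1 CPM (11773 of 32434 entries). edgeR 4.0.16 in R 4.3.3 fitted all 15 libraries with the line as factor and TMM factors, and its quasi-likelihood test took the contrast of IL6Myc-2 minus IL6Myc-4. A call needs a difference of 1 or more on the log2 scale, in either direction, together with a p below 0.05 after Benjamini-Hochberg adjustment. A ± beside a log2 difference is its standard error. The test was checked on simulated data. Against 0 counts, folds were computed from a floor of 3 counts summed over the line, and against 1 to 3 counts with an exact 95% interval, both covering counting error only.

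Alternatives used DESeq2 1.42.0, limma 3.58.1, other scalings, filters and a replicate block. Gene names matched RefSeq symbols for 98.7% of entries, and RefSeq GRCm38.p6 gave chromosomes, gene order and promoters, whose coordinates are of that build and not of GRCm39. Named genes are the 15 highest and 15 lowest fitted differences at 5 CPM or more without overlap, and called members of 38 gene lists, chosen by role. Members not called and genes in runs were named after their values were seen. The members and lists were chosen with earlier results of these data known.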

Additional observations from a re-analysis of the deposited data

How the results depend on the processing

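The count of 1645 called genes was within 1.5 times of itself with DESeq2 size factors (1640), under DESeq2 (1641), with TMM computed without immunoglobulin genes (1646), in the 6 libraries alone (1486), without a filter (2392) and with library totals (1909), where the genes higher in IL6Myc-4 rose to 1184. With limma on log2(CPM + 1), 433 genes were called higher in IL6Myc-4. On log2(CPM + 5), a scale that shrinks differences of low genes, 578 genes were called, 368 higher in IL6Myc-2 and 210 higher in IL6Myc-4. With a filter at 5 CPM fewer genes (9932) were tested, and 952 were called, 563 higher in IL6Myc-2 and 389 higher in IL6Myc-4. Leaving out 1 library at a time gave 1622 to 1639 called genes, 953 to 979 higher in IL6Myc-2 and 653 to 686 higher in IL6Myc-4. With the replicate number as a block 1647 genes were called, 979 and 668. The replicate numbers gave no sign of pairing, with correlations of the deviations of same-numbered libraries of 0.015, 0.0090 and -0.019. Of 153 named genes followed, 124 had the same call in every alternative, and none reversed. Depth limits the genes at or near 0 counts. In simulated counts for this comparison 44 of 100 genes changed 2-fold and 99 of 100 changed 4-fold were called. A 2-fold change lies on the threshold of a call itself, and 85 of those 100 were significant with the right sign. The changed genes were drawn from those above a minimum mean count, so the simulation does not cover genes of few counts.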

Other observations

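AI506816, a locus without a gene name that was picked after its values were seen, was at 12960.4, 12788 and 12572 CPM in IL6Myc-2 and 1472, 1394 and 1559.8 CPM in IL6Myc-4 (log2 difference 3.11 ± 0.05), with 519.8 to 3109 CPM in the other lines. Metallothionein genes, whose products bind zinc and copper, were higher in IL6Myc-4: Mt1 stood at 441 ± 1.87 against 161 ± 5.46 CPM and Mt2 at 377 ± 6.6 against 120.3 ± 2.78 CPM, next to Bbs2 on chromosome 8. Rhox5, a homeobox gene of the reproductive tract at the end of the run on chromosome X, was at 88.1 ± 1.8 CPM in IL6Myc-2 and 7.56 ± 0.0647 CPM in IL6Myc-4. Prg2, the major basic protein of eosinophil granules, was at 33.1 ± 0.884 against 0.398 ± 0.181 CPM beside Slc43a3 and Prg3 on chromosome 2. These genes were also picked after their values were seen.

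Among 17 tested genes of DNA methylation and Polycomb 1 was called in each direction. Tet3, which oxidises methylated cytosine, was higher in IL6Myc-2 (66.9 ± 2.44 against 26.3 ± 1.13 CPM), and the methyltransferase gene Dnmt3b was higher in IL6Myc-4 at low levels (0.579 CPM against 2 counts in all). Bik, a promoter of cell death of the BCL2 family, was higher in IL6Myc-2 (7.3 ± 1.0 against 2.62 ± 0.56 CPM). Fosl2, a factor of the AP-1 family, was higher in IL6Myc-4 (9.63 ± 0.842 against 4.13 ± 0.404 CPM), in a list of MAPK feedback and immediate early genes with 2 of 21 tested higher in IL6Myc-2 and 3 in IL6Myc-4. The 4 Y-linked genes Ddx3y, Uty, Kdm5d and Eif2s3y were detected in both lines, and Eif2s3y was called at the threshold (84.4 ± 4.45 against 42.1 ± 2.59 CPM), a call lost with library totals alone (log2 difference 0.68).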
